A study of Mus musculus with 9 samples.

Results

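The genes described here are Spp1, which encodes osteopontin, Gpnmb, which encodes the glycoprotein GPNMB, and Cd44, Itgav and Itgb3, which encode the cell surface receptors of osteopontin. These 5 symbols of the 24571 in the deposited table were taken by name, and Spp1 was chosen by its TPM values, which were already lower in heterozygous hearts, so its own changes are given as a description without a test. The study asked what a missense allele of Ctcf, R567W, does to the mouse heart. Ctcf encodes the DNA-binding factor that, with cohesin, anchors chromatin loops. The allele had been made by CRISPR/Cas9 editing in C57BL/6N mice, and whole hearts of E18.5 embryos were sequenced from wild-type embryos, embryos heterozygous for R567W and embryos homozygous for R567W, with 3 libraries per genotype. The allele is inherited and not restricted to a tissue by Cre or a promoter, and homozygous pups die soon after birth. Levels are TPM, a transcript abundance scaled to transcript length and to the total of each library.

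Osteopontin is a secreted, heavily phosphorylated protein of bone matrix that is also made by activated macrophages, and in the heart it is best known from injured and remodelling muscle. It binds αv integrins through an RGD motif, other integrins through a site that thrombin cleavage exposes, and CD44, a receptor that also binds hyaluronan. The αv subunit encoded by Itgav pairs with several β subunits, among them the β3 subunit of Itgb3, which in platelets and megakaryocytes pairs with αIIb instead. GPNMB is a transmembrane glycoprotein of melanosomes and lysosome-rich phagocytes, known in bone as osteoactivin, and its gene is a target of the MiT/TFE factors. Spp1 and Gpnmb are commonly listed together as genes of lipid-laden macrophages.

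The genes lie on different chromosomes, apart from Cd44 and Itgav, which are both on chromosome 2 (mm10, GENCODE M21). Spp1 spans chr5:104435118-104441050 on the plus strand with up to 8 exons in a coding transcript, and Gpnmb spans chr6:49036546-49070929 on the plus strand with up to 11 exons. Cd44 is at chr2:102811141-102901665 on the minus strand with up to 19 exons, Itgav at chr2:83724397-83806916 on the plus strand with up to 30 exons, and Itgb3 at chr11:104608000-104670476 on the plus strand with up to 15 exons. Of all 31-base words in the Spp1 transcripts, 14.3% also occur in transcripts of another gene. The annotation places the gene model Gm42793 over Spp1 on the same strand, so part of the Spp1 level depends on how shared reads were assigned. For the other 4 genes the share was 0.708% or less.

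The promoters of Spp1 and Gpnmb are shown because these are the genes whose levels separated the genotypes. Each runs from 250 bases before the RefSeq start site to 30 bases after it (GRCm38.p6), with matches to the searched motifs in capitals.
Spp1: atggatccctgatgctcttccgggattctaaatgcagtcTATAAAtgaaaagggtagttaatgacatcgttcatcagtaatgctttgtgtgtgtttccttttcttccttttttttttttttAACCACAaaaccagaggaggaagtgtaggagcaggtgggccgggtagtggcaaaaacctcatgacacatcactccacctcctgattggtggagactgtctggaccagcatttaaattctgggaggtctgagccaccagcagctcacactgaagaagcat
Gpnmb: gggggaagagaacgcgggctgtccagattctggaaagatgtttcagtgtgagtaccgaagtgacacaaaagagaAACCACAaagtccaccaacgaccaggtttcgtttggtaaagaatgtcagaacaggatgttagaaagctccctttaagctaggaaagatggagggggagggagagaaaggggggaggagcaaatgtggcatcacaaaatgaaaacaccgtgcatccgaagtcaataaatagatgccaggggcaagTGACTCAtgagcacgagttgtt
The Spp1 stretch is chr5:104434861-104435140 and the Gpnmb stretch chr6:49036268-49036547, both on the plus strand. In Spp1 the capitals mark a TATAAA from base -211 to -206 before the start site and the Runx motif AACCACA from -129 to -123, Runx factors being regulators of osteopontin in bone cells. Gpnmb holds the same Runx motif from -176 to -170 and the AP-1 motif TGACTCA from base 9 to 15 after the start site. Over 32851 mouse promoter windows of 300 bases searched on both strands, AACCACA was present in 5.27%, TATAAA in 13.6% and the AP-1 motif TGANTCA in 7.81%. The E-boxes CATGTG and CACGTG, bound by MiT/TFE factors and present in 14.2% and 7.15% of windows, and a CTCF core motif, present in 0.557%, had no match in these windows. The 6 motifs were chosen after the Spp1 and Gpnmb windows had been read. The windows of Cd44, of Itgav and of a further Spp1 start site held none of the 6, and Itgb3 had no entry.

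Spp1 was clearly expressed in wild-type hearts and was lower in every heterozygous and every homozygous heart. Its level was 8.90, 7.41 and 12.85 TPM in the wild type, 1.85, 0.74 and 1.43 TPM in heterozygotes and 0.43, 0.52 and 0.30 TPM in homozygotes. The ranges of the 3 genotypes did not overlap, and the lowest wild-type library was above the highest heterozygous one. As means the levels were 9.72 ± 2.81, 1.34 ± 0.56 and 0.417 ± 0.111 TPM (SD, n = 3 each). The heterozygous mean was 7.25-fold below the wild-type mean and the homozygous mean was 23.3-fold below it, while the homozygous mean was 3.22-fold below the heterozygous mean. On the log2(TPM + 1) scale, which understates changes of low genes, the difference was -2.19 (SE 0.26) for heterozygous against wild type, -2.89 (SE 0.26) for homozygous against wild type and -0.70 (SE 0.26) for homozygous against heterozygous. These comparisons share libraries and are not independent of each other. In terms of rank, 70.6% of all symbols had a lower mean than Spp1 in wild-type hearts, compared with 47.4% in heterozygous and 35.8% in homozygous hearts. In whole hearts, fewer cells that express a gene and less RNA per cell cannot be told apart.

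Lower levels without overlap also occurred among other genes. Of 13682 genes tested, 2.38% were lower without overlap in homozygous than in wild-type hearts, 1.03% were lower in heterozygous than in wild-type hearts, and 3.85% were lower in homozygous than in heterozygous hearts. Most genes shifted upwards on the log2 scale, with a median over all tested genes of 0.23 for homozygous against wild type, 0.15 for heterozygous against wild type and 0.08 for homozygous against heterozygous. Relative to these medians, Spp1 differed by -3.12, -2.34 and -0.77 in the same order.

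**Figure D1:**
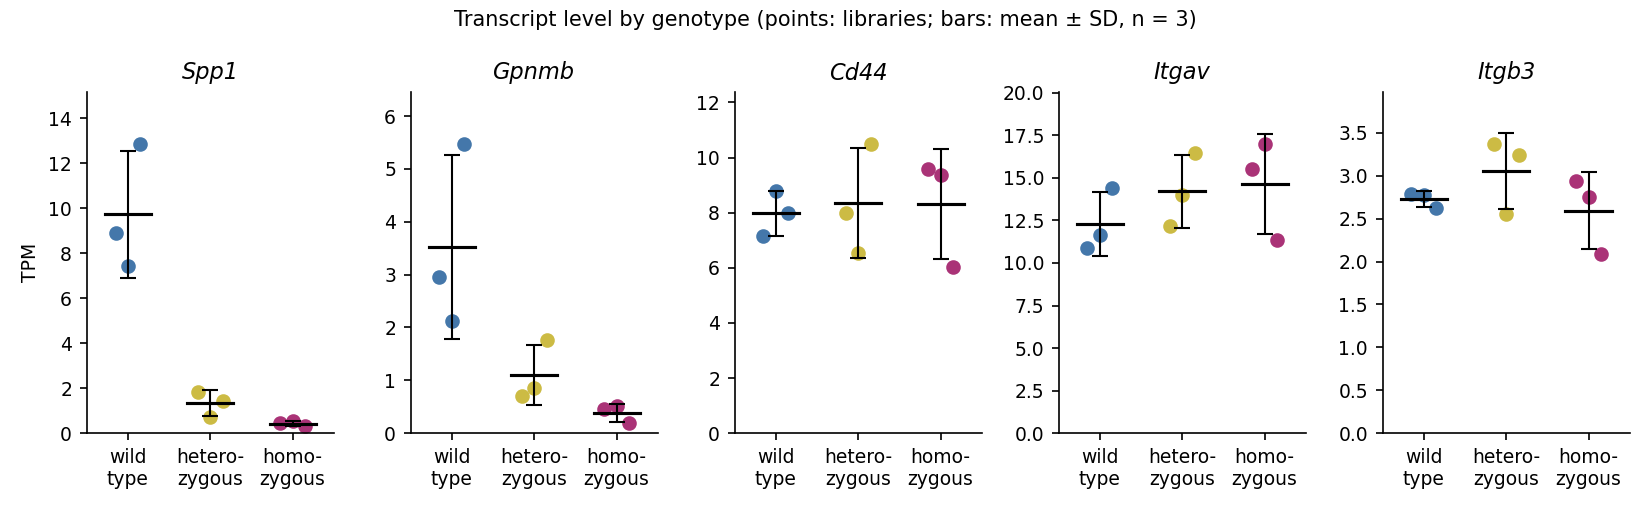
Level of each gene in TPM (vertical axes from 0, a different scale per gene) in the 3 libraries of each genotype, with bars for the mean ± SD. Spp1 and Gpnmb separate the genotypes, with Spp1 at 7.41 to 12.85 TPM in the wild type and 0.30 to 0.52 TPM in homozygotes, while the genotypes overlap for Cd44, Itgav and Itgb3.

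Gpnmb had the same order of genotypes at lower levels. It was at 2.96, 2.12 and 5.47 TPM in the wild type, 0.70, 0.85 and 1.76 TPM in heterozygotes and 0.45, 0.51 and 0.19 TPM in homozygotes. No genotype overlapped another, but the wild-type libraries spread widely, with wild-type 3 well above the other two. The means were 3.52 ± 1.74, 1.10 ± 0.57 and 0.383 ± 0.170 TPM (SD, n = 3 each), which put the heterozygous mean 3.19-fold and the homozygous mean 9.17-fold below the wild-type mean. Tested with limma across all 13682 genes with Benjamini-Hochberg adjustment, the log2 difference of homozygous against wild type was -1.65 (SE 0.32, 95% interval -2.35 to -0.94, adjusted p = 0.070) and so missed the 0.05 threshold. Gpnmb reached the mean of 1 TPM that the test required only through its wild-type and heterozygous libraries, so a pass of this test would be no support for a change. With no filter on low values the limma adjusted p was 0.129. Over 20 alternatives the limma adjusted p ran from 0.0111 to 0.194, and without wild-type 3 the difference was -1.35 with an adjusted p of 0.0303. Heterozygous against wild type gave -1.07 (SE 0.32, limma adjusted p = 0.672), and homozygous against heterozygous gave -0.58 (SE 0.32, limma adjusted p = 0.762). Over all tested genes, limma called 0.336%, 0.0146% and 0.0439% for homozygous against wild type, heterozygous against wild type and homozygous against heterozygous.

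The receptor genes had similar ranges in the 3 genotypes. None of the 3 receptor genes passed the test in any comparison, and the genotypes overlapped for each. Cd44 was at 7.15, 8.79 and 7.97 TPM in the wild type, 7.97, 6.55 and 10.49 TPM in heterozygotes and 9.57, 9.36 and 6.03 TPM in homozygotes. The lowest Cd44 level of all was in homozygous 3 and the highest in heterozygous 3. For homozygous against wild type the log2 difference of Cd44 was 0.04 (95% interval -0.42 to 0.49, limma adjusted p = 0.924), and for heterozygous against wild type it was 0.04 (-0.41 to 0.49, limma adjusted p = 0.951).

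Itgav, the αv subunit, was the most abundant of the 5 transcripts in each of the 9 libraries. It was at 10.86, 11.63 and 14.40 TPM in the wild type, 12.20, 13.99 and 16.45 TPM in heterozygotes and 15.55, 16.99 and 11.38 TPM in homozygotes. Its log2 difference was 0.23 for homozygous against wild type (95% interval -0.17 to 0.62, limma adjusted p = 0.417), which is the same as the median of all genes, and 0.19 for heterozygous against wild type (-0.20 to 0.59, limma adjusted p = 0.712). Itgb3, the β3 subunit, was at 2.79, 2.78 and 2.62 TPM in the wild type, 3.37, 2.55 and 3.24 TPM in heterozygotes and 2.94, 2.75 and 2.09 TPM in homozygotes. The wild-type libraries were close together and lay inside the range of both other genotypes. The log2 difference of Itgb3 was -0.06 for homozygous against wild type (95% interval -0.46 to 0.34, limma adjusted p = 0.844) and 0.11 for heterozygous against wild type (-0.29 to 0.52, limma adjusted p = 0.819). For homozygous against heterozygous the log2 differences were -0.01 for Cd44, 0.03 for Itgav and -0.18 for Itgb3, with limma adjusted p of 0.851 or more. The intervals of these 3 genes for homozygous against wild type leave room for a log2 change of 0.49 for Cd44, 0.62 for Itgav and 0.34 for Itgb3 upwards. With the libraries rescaled to a common median ratio, Cd44 and Itgav turned to -0.19 and -0.01 for homozygous against wild type, so no direction can be read for them.

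**Figure D2:**
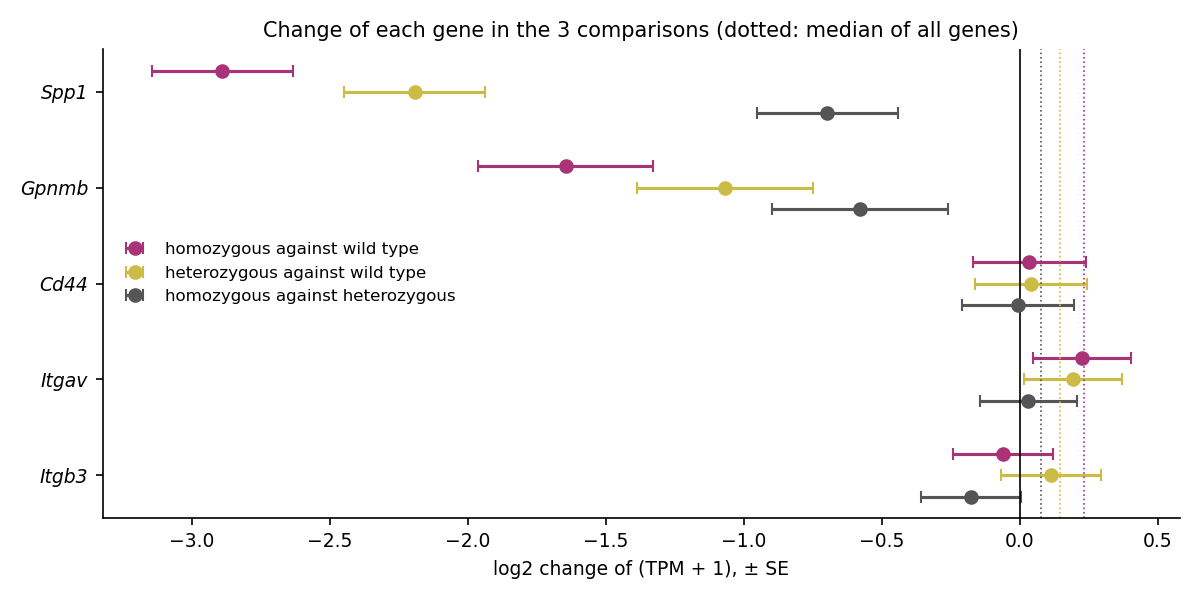
Difference in log2(TPM + 1) on the horizontal axis for each gene, with bars of ± SE from the limma fit, for the 3 comparisons of genotypes. Dotted lines mark the median of all tested genes. Spp1 lies at -2.89 and Gpnmb at -1.65 for homozygous against wild type, while Cd44, Itgav and Itgb3 lie between -0.18 and 0.23 in all comparisons.

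Ligand and receptors stood in a different order in wild-type hearts than in the other genotypes. In wild-type hearts Itgav, Spp1 and Cd44 had mean levels of 12.3, 9.72 and 7.97 TPM, with neighbours in this order overlapping between libraries, followed by Gpnmb and Itgb3 at 3.52 and 2.73 TPM, which also overlapped each other. In heterozygous and homozygous hearts the order was Itgav, Cd44, Itgb3, with no overlap between them, and then Spp1 and Gpnmb, which overlapped each other. The ratio of Itgav to Spp1 in the same library was 1.22, 1.57 and 1.12 in wild-type, 6.59, 18.9 and 11.5 in heterozygous, and 36.2, 32.7 and 37.9 in homozygous hearts. Among receptors, the ratio of Itgav to Cd44 was between 1.32 and 2.14 in all 9 libraries. Spp1 exceeded Gpnmb by 2.35-fold to 3.50-fold in wild-type libraries and by 2.64-fold in heterozygous 1, and the ratio was between 0.812 and 1.58 in the other 5 libraries, where both are near or under 2 TPM.

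Spp1 and Gpnmb have a mean of at least 1 TPM over all libraries only because of the libraries in which they are high, and in homozygous hearts both were below 1 TPM in every library. All 5 genes passed the filter, and 3 of them, the receptors, had a mean of at least 1 TPM in each genotype.

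The sex of the embryos, read from Xist and Y-linked transcripts, was not balanced. Wild-type 1, all 3 heterozygous libraries and homozygous 1 were female, and wild-type 2 and 3 and homozygous 2 and 3 were male. Among females, Spp1 was at 8.90 TPM in the wild-type heart, 0.74 to 1.85 TPM in the heterozygous hearts and 0.43 TPM in the homozygous heart. Among males it was at 7.41 and 12.85 TPM in the wild type and 0.52 and 0.30 TPM in homozygotes. For Gpnmb the females gave 2.96 TPM in the wild type, 0.70 to 1.76 TPM in heterozygotes and 0.45 TPM in homozygotes, and the males 2.12 and 5.47 against 0.51 and 0.19 TPM. Within each sex, both genes were higher in every wild-type than in every homozygous heart, with 1 female and 2 male libraries in each of these genotypes. The receptors showed no such order, with Cd44 at 7.15 TPM in the female wild-type and 9.57 TPM in the female homozygous heart but at 8.79 and 7.97 against 9.36 and 6.03 TPM in males.

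Macrophages, osteoclasts and bone cells are known sources of osteopontin, and their markers were summed in each library. The 14 macrophage markers summed to 73.2 to 106 TPM in the wild type, 57.2 to 101 TPM in heterozygotes and 88.7 to 111 TPM in homozygotes, and 0 of the 12 tested were called by limma in any comparison. At an unadjusted p under 0.05, 1 of the 12 passed for homozygous against wild type, 0 for heterozygous against wild type and 1 for homozygous against heterozygous, where 25.04%, 6.87% and 7.15% of all tested genes did. The macrophage sum overlapped between genotypes. Of the 12 tested markers, 9 were above 0 and 3 below for homozygous against wild type, with a median log2 difference of 0.20 beside 0.23 over all genes. The highest was the chemokine receptor gene Cx3cr1 at 0.64, with 1.43 to 2.21 TPM in the wild type and 2.83 to 4.29 TPM in homozygotes. The lowest was Aif1 at -0.18, with 2.09 to 2.63 TPM in the wild type and 1.07 to 2.89 TPM in homozygotes. The 8 osteoclast markers summed to 8.90 to 12.7 TPM in the wild type, 10.7 to 18.8 TPM in heterozygotes and 17.4 to 23.6 TPM in homozygotes, higher in each homozygous than in each wild-type library. Most of that sum was Ctsk, or Acp5 and Mmp9 as well in homozygous 3, while the fusion genes Ocstamp and Dcstamp were at 0 in most libraries and at 0.54 TPM at most. The 6 bone markers in the table summed to at most 3.04 TPM in any library. The 7 cartilage markers summed to 5.90 to 18.7 TPM in the wild type, 2.78 to 8.57 TPM in heterozygotes and 4.92 to 8.48 TPM in homozygotes. Their highest sum was in wild-type 1. The 4 tested cartilage markers had a median log2 difference of -0.34 for homozygous and -0.32 for heterozygous against wild type, and limma called 0. The part of these cells in the level of Spp1 was not tested.

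Melanocytes are a known source of GPNMB, and 7 of their markers summed to 8.03 to 10.4 TPM in the wild type, 5.15 to 8.08 TPM in heterozygotes and 3.16 to 9.47 TPM in homozygotes. Within that sum Mlana, a melanosome protein, was at 4.63 to 5.52 TPM in the wild type and at 6.75, 3.11 and 1.52 TPM in homozygotes. Homozygous 1 had more Mlana than any wild-type library and 0.45 TPM of Gpnmb. The markers Dct and Tyrp1 were lower in each homozygous than in each wild-type library, with Tyrp1 at 0.36 to 1.04 TPM against 0.15 to 0.31 TPM. The remaining markers of this list overlapped between these genotypes. The 2 tested markers, Dct and Mlana, had log2 differences of -0.59 and -0.50 for homozygous against wild type, and limma called 0. Tyr, the melanin-synthesis enzyme tyrosinase, was at 0.07 TPM or less in all 9 libraries. Megakaryocyte and platelet markers summed to 16.4 to 39.2 TPM, with the lowest sum in homozygous 3, where Itgb3 was also lowest. Their part in the levels of Gpnmb and Itgb3 was not tested.

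A few libraries carried transcripts of other organs. The 12 thymocyte markers summed to 582 TPM in homozygous 3 and to 0.56 to 2.78 TPM elsewhere, the 8 liver markers to 2909 TPM in heterozygous 1 and to 15.8 to 64.2 TPM elsewhere, and the 10 airway and lung markers to 2619 TPM in wild-type 1 and to 1107 TPM in heterozygous 1. Airway and lung markers were lower but present in homozygous 1 and wild-type 2, at 50.65 and 36.39 TPM, beside 0.06 to 3.37 TPM in the other 5 libraries. The 10 cardiomyocyte markers summed to 31948 to 44561 TPM, so the labelled tissue was borne out by its markers in all 9 libraries. Fibroblast and epicardium markers summed to 441 to 1014 TPM and endothelial markers to 243 to 415 TPM. The 5 smooth muscle markers summed to 606 to 707 TPM in the wild type, 494 to 704 TPM in heterozygotes and 341 to 546 TPM in homozygotes, lower in each homozygous than in each wild-type library. None of the 5 was called by limma. At an unadjusted p under 0.05 there were 2 for homozygous against wild type and 2 for homozygous against heterozygous. For heterozygous against wild type there were 0. The shares of all tested genes at that p were 25.04%, 7.15% and 6.87% in the same order. The part of smooth muscle in the levels of Spp1 and Gpnmb was not tested. Without wild-type 1, heterozygous 1 and homozygous 3 the log2 difference for homozygous against wild type was -2.87 for Spp1 and -1.60 for Gpnmb (limma adjusted p = 0.120). Wild-type 1 lay between the other wild-type libraries for both Spp1 and Gpnmb, and wild-type 2 also held some lung markers. The part of other organs in the levels of Spp1 and Gpnmb was not tested.

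**Figure D3:**
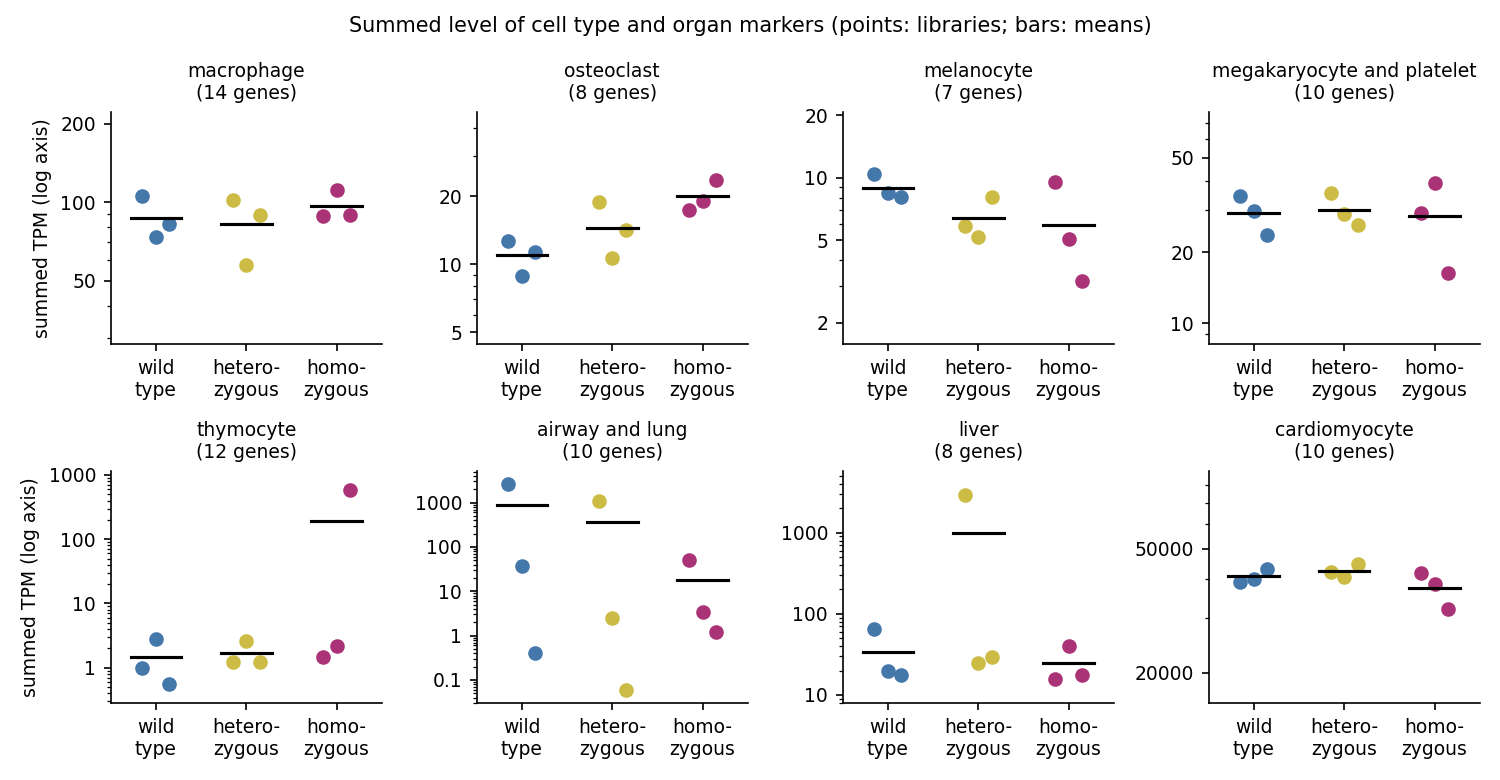
Summed TPM of marker genes (log axes, a different scale per panel) for 8 cell types or organs, with a point per library and a bar for the mean of each genotype. Macrophage markers overlap between genotypes, at 57.2 to 111 TPM, and the thymocyte, lung and liver panels show the libraries that stand apart.

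The other genes of the osteopontin system were followed in lists by role. No gene of these lists passed the limma test in any comparison, and at an unadjusted p under 0.05 there were 15 of 67 tested genes for homozygous against wild type, 4 for heterozygous against wild type and 5 for homozygous against heterozygous. Over all 13682 tested genes the shares at that p were 25.04%, 6.87% and 7.15%, so the pooled counts were near the background. The list of AP-1 factors held 5 of 7 for homozygous against wild type and 2 of 7 for heterozygous against wild type. The bone-matrix relatives of osteopontin in the table, Ibsp, Dmp1 and Dspp, were at 0.30 TPM or less in every library and were not tested. Of the enzymes that modify or cleave osteopontin, 4 of 6 in the table were tested. The kinase Fam20c was at 6.98 to 9.74 TPM in the wild type and 7.35 to 8.08 TPM in homozygotes, with a log2 difference of -0.10. The cross-linking enzyme Tgm2 had a log2 difference of -0.44 (limma adjusted p = 0.150). Thrombin (F2) was near 0 except for 26.71 TPM in heterozygous 1, the library with liver markers, and the protease Mmp9 was at most 1.51 TPM except for 6.73 TPM in homozygous 3, the library with thymocyte markers.

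Mmp12, macrophage elastase, cleaves osteopontin and was too low to be tested, with a mean under 1 TPM. It is named because its levels were seen to follow those of Spp1. It was at 1.68, 1.36 and 1.85 TPM in the wild type, 0.06, 0.11 and 0.32 TPM in heterozygotes and 0.00, 0.00 and 0.15 TPM in homozygotes. All wild-type libraries were above all others, and heterozygous and homozygous libraries overlapped. The means were 1.63 ± 0.25, 0.163 ± 0.138 and 0.050 ± 0.087 TPM (SD, n = 3 each). In a fit to all 24571 symbols the log2 difference was -1.18 (SE 0.12) for heterozygous against wild type and -1.32 (SE 0.12) for homozygous against wild type.

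The integrin subunits that bind osteopontin in other pairs include α4, α5, α8, α9, β1, β5 and β6. The 6 tested subunits had a median log2 difference of -0.01 for homozygous against wild type and 0.14 for heterozygous against wild type. Itgb1, which pairs with α4, α5, α8 and α9, was at 252 to 324 TPM in the wild type and 243 to 357 TPM in homozygotes, far above the αv and β3 subunits. Itgb5, another partner of αv, was at 40.88 to 50.30 TPM and 36.56 to 65.58 TPM. Itga5 and Itga9 differed by -0.14 and -0.19 on the log2 scale. Itga4 had the highest value, 0.72, but was at 1.11, 0.92 and 6.82 TPM in the homozygous libraries, and the high value belongs to homozygous 3 with its thymocyte markers.

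Several other ligands of αv integrins were abundant. Over 9 tested genes the median was 0.22 for homozygous against wild type, with 6 above 0 and 3 below, and -0.03 after median-ratio scaling. Fibronectin (Fn1) was at 132 to 189 TPM in the wild type and 128 to 233 TPM in homozygotes, and periostin (Postn) at 298 to 414 TPM and 242 to 488 TPM. Mfge8, a bridge between αv integrins and dying cells, differed by -0.09. Vitronectin (Vtn), a liver product, differed by 0.50 and reached 33.06 TPM in heterozygous 1. The lowest value was that of Cyr61, a matricellular protein and immediate-early gene, at -2.37 (SE 0.66, limma adjusted p = 0.112). Its levels were 278.56, 179.42 and 33.79 TPM in the wild type, 87.04, 29.60 and 31.36 TPM in heterozygotes and 29.57, 21.62 and 17.56 TPM in homozygotes, so wild-type 3 was close to the heterozygous hearts.

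Hyaluronan enzymes and CD44 partners had a median of 0.19 for homozygous against wild type, with 7 of 9 tested genes above 0, and -0.06 after median-ratio scaling. The ezrin, radixin and moesin genes, whose proteins tether CD44 to the cytoskeleton, differed by 0.23 (Ezr), 0.12 (Rdx) and 0.10 (Msn). Hyal1, a lysosomal hyaluronidase, had the highest value at 0.74 (limma adjusted p = 0.104), with 1.63 to 3.10 TPM in the wild type and 4.27 to 4.65 TPM in homozygotes. The hyaluronan synthase Has1 had the lowest at -0.53 (limma adjusted p = 0.250).

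**Figure D4:**
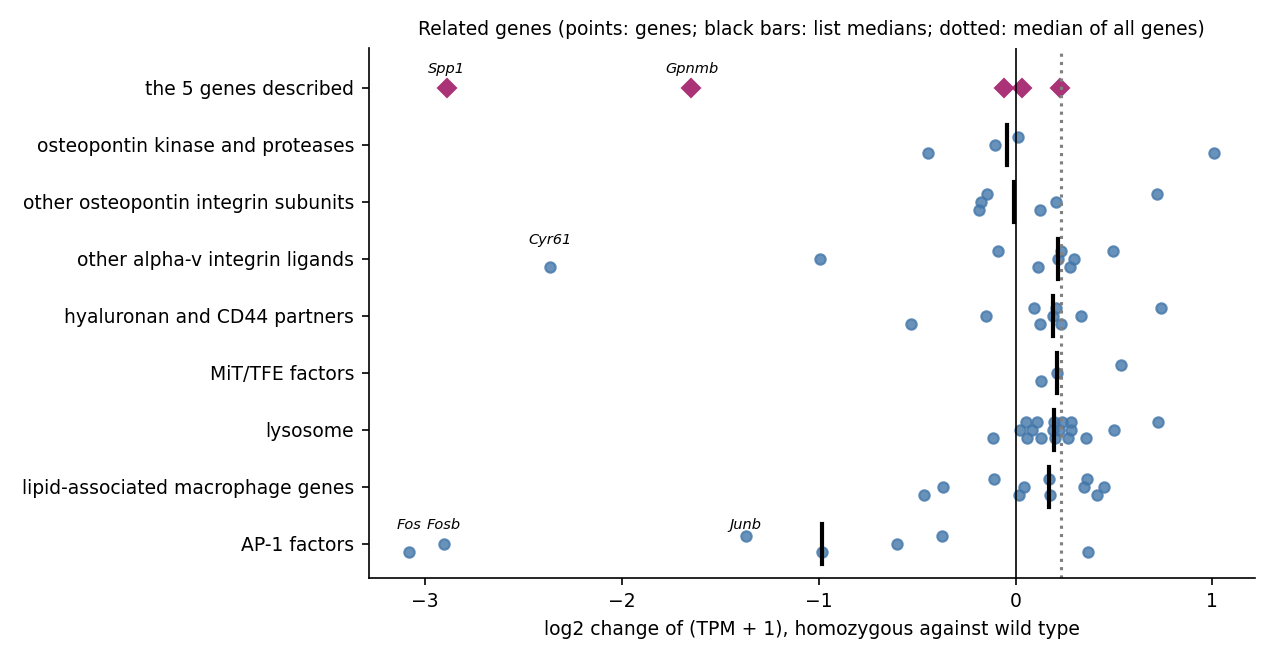
Difference in log2(TPM + 1) for homozygous against wild type for the 5 genes (diamonds) and for the tested genes of each list (circles), with black bars for list medians and a dotted line at the median of all genes, 0.23. Spp1 and Gpnmb lie below all tested genes of every list except Fos and Fosb for Spp1 and, for Gpnmb, Fos, Fosb and Cyr61.

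MiT/TFE factors drive lysosomal genes and Gpnmb. The MiT/TFE factors Mitf, Tfe3 and Tfeb differed by 0.21, 0.54 and 0.13 for homozygous against wild type, with limma adjusted p of 0.133 or more and a median of -0.03 after median-ratio scaling. Mitf was at 16.10 to 23.43 TPM in the wild type and 17.20 to 27.48 TPM in homozygotes. Of 18 lysosomal genes, 17 were above 0, with a median of 0.20 that became -0.05 after median-ratio scaling. Ctsd, Psap and Cd63, the most abundant, differed by 0.28, 0.26 and 0.02, and the lowest was Ctss at -0.11. The highest was the acid lipase gene Lipa at 0.72 (limma adjusted p = 0.070), which was at 9.82 to 12.28 TPM in the wild type and 17.50 to 19.60 TPM in homozygotes. The other genes of lipid-associated macrophages had a median of 0.17 over 11 tested genes, with 8 above 0, and -0.07 after median-ratio scaling. Apoe, Fabp4 and Fabp5 differed by 0.45, 0.01 and 0.35. Lgals3, the galectin of such cells, was lowest at -0.47 (limma adjusted p = 0.369), with 9.62, 4.38 and 3.96 TPM in the wild type and 3.10, 2.96 and 5.60 TPM in homozygotes, which overlap.

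The AP-1 factors, whose motif occurs in the Gpnmb window, varied widely between libraries. Their median was -0.98 for homozygous against wild type and -0.56 for heterozygous against wild type, with 6 of 7 below 0 in both, and none passed the test. At an unadjusted p under 0.05 in limma there were 5 of 7 and 2 of 7 in these comparisons. For homozygous against heterozygous there were 0. Of all tested genes, 25.04%, 6.87% and 7.15% were under that p in the same order. Fos had the lowest value at -3.08 (limma adjusted p = 0.143) and Fosl1 the highest at 0.37. Fos was at 120, 63.47 and 3.26 TPM in the wild type, 45.38, 6.94 and 4.51 TPM in heterozygotes and 4.75, 1.96 and 2.22 TPM in homozygotes. For Fos, wild-type 3 was below every heterozygous library and within the homozygous range. The part of AP-1 in the levels of Spp1 and Gpnmb was not tested. Jun and Jund, the most abundant of the family, differed by -0.98 and -0.37.

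The genes most like Spp1 and Gpnmb were sought among all tested genes by the root mean square (RMS) difference of centred log2(TPM + 1) over the 9 libraries. Of 13681 genes compared, Gpnmb was the nearest to Spp1, at 0.62 against 1.26 for the Spp1 profile itself. It was followed by Serpinb6b (0.63), a serine protease inhibitor gene, Gm13248 (0.63), Gm13139 (0.70) and Man2b2 (0.74), an α-mannosidase gene. Serpinb6b was at 12.94 to 15.73 TPM in the wild type, 5.28 to 6.50 TPM in heterozygotes and 0.44 to 0.87 TPM in homozygotes and so was still above 5 TPM in the heterozygous hearts, where Spp1 was under 2 TPM. Man2b2 was at 6.62 to 9.07, 4.84 to 5.79 and 1.28 to 1.98 TPM. In the other direction, Spp1 was only at place 147 for Gpnmb, at 0.62 against 0.75 for the Gpnmb profile itself. The measure is not scaled to the size of a change, so a gene with larger changes lies further away. The nearest to Gpnmb were Gm13139 (0.33), Gstm6 (0.36), a glutathione transferase gene, Opn4 (0.36), which encodes melanopsin, Dhrs13 (0.37) and Ch25h (0.38), which encodes cholesterol 25-hydroxylase. Ch25h was at 1.62 to 2.20 TPM in the wild type, 0.43 to 0.76 TPM in heterozygotes and 0.44 to 0.61 TPM in homozygotes, with overlap between heterozygous and homozygous hearts. The measure describes 9 libraries that share genotype and scaling, and several of these genes are low.

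**Figure D5:**
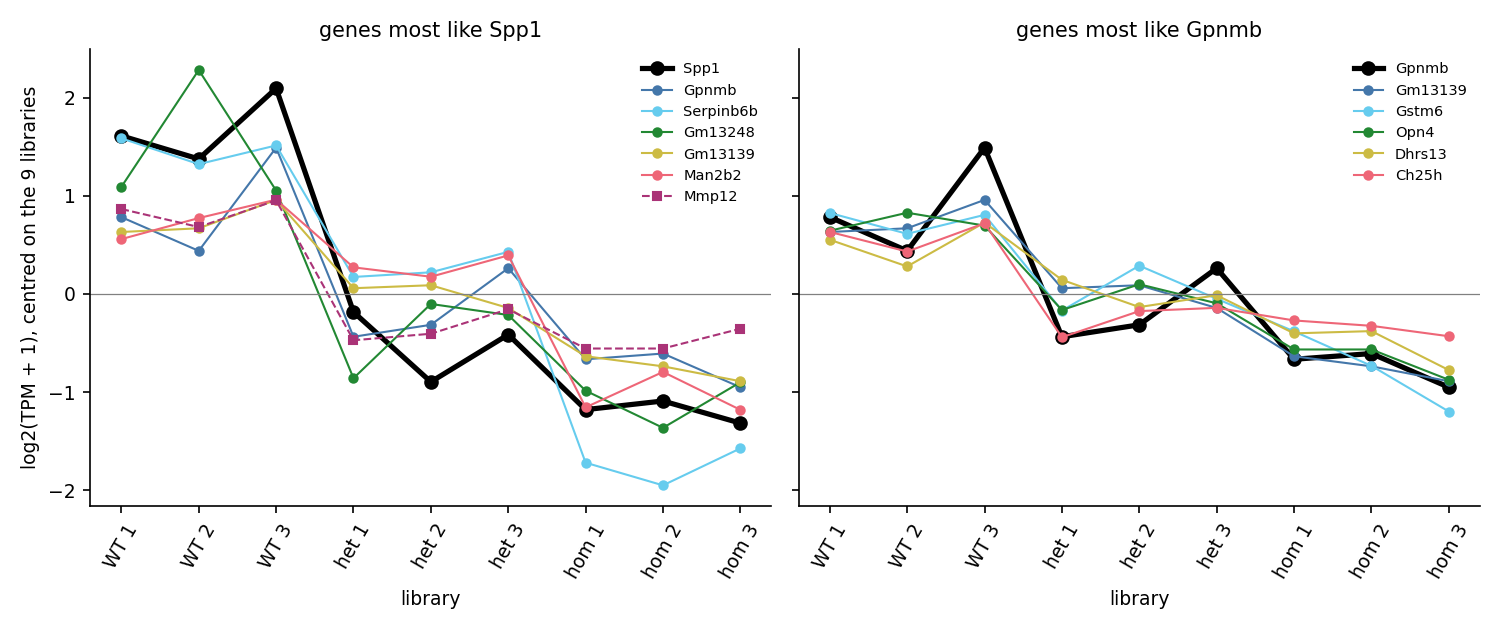
Centred log2(TPM + 1) per library (WT, het and hom for wild-type, heterozygous and homozygous) of Spp1 on the left and Gpnmb on the right, in black, with the 5 nearest genes of each and, on the left, Mmp12. Spp1 drops mainly between wild-type and heterozygous libraries, while Serpinb6b drops most between heterozygous and homozygous ones.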

How the data were processed

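Total RNA was taken from hearts of E18.5 mouse embryos, mRNA was captured on beads and sequenced, with 3 libraries for each of 3 genotypes. The authors trimmed the reads with Trim Galore, aligned them to mm10 with STAR and quantified genes with RSEM. The deposited values are TPM per gene symbol, made by the authors from estimated counts, effective length and library total. The release of the gene annotation and whether strand was used are not given in the sources used here. TPM keeps no read depth, so counting error is unknown and precision comes from the spread between libraries. Each heart was its own library, but litters are not named, so p-values measure the spread between these samples.

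Of 24597 symbols, 26 that a spreadsheet had turned into dates were left out. The 13682 symbols averaging 1 TPM or more were tested on log2(TPM + 1) with limma (version 3.58.1, R 4.3.3, mean-variance trend), all 9 libraries in a fit with no covariate, and Benjamini-Hochberg adjustment at 0.05. The fit was tested on simulated data. The genes, lists, markers and tests were chosen with earlier results of these data known. Within each list the text names called genes, the 3 most abundant and the highest and lowest for homozygous against wild type, and for likeness the 5 nearest genes. Promoters and start sites come from RefSeq (GRCm38.p6), with 4 of 5 genes matched, and gene positions from GENCODE M21. Alternatives changed the pseudocount, filter, scaling, trend, library weights, groups in the fit, replicate block, sex covariate and libraries included. Neighbouring genes and the Mmp12 fit were added after seeing the data.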

Additional observations from a re-analysis of the deposited data

How the results depend on the processing

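In the 3 comparisons, the log2 differences of Spp1 and Gpnmb kept their sign under every alternative run. Those of Cd44, Itgav and Itgb3, which lie near 0, turned under at least 1 alternative, except Itgav for heterozygous against wild type and Itgb3 for homozygous against heterozygous. With a pseudocount of 0.1, Spp1 was at -4.23 for homozygous against wild type, -2.82 for heterozygous against wild type and -1.42 for homozygous against heterozygous, and with a pseudocount of 5 it was at -1.43, -1.20 and -0.22, which follows from the weight the pseudocount gives to low values. Gpnmb, whose place among the tested genes rests on its higher genotypes, was under the limma threshold for homozygous against wild type with a pseudocount of 0.1 (-2.87, adjusted p = 0.0482), median-ratio scaling (-1.78, adjusted p = 0.0212), quantile normalization (-1.86, adjusted p = 0.0443), no mean-variance trend (-1.65, adjusted p = 0.049) and library weights (-1.32, adjusted p = 0.0111). Leaving out single libraries moved it from -1.88 to -1.35, and it was under the threshold only without wild-type 3, so these passes are given as values and not as support. The cause was not tested.

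The sign turned under median-ratio scaling for Cd44 (-0.19 for homozygous and -0.11 for heterozygous, both against wild type), Itgav (-0.010 for homozygous against wild type, -0.050 for homozygous against heterozygous) and Itgb3 (-0.012 for heterozygous against wild type), and under quantile normalization for the same results (-0.27, -0.15, -0.050, -0.068 and -0.064). Both scalings brought the median of all genes for homozygous against wild type from 0.23 to 0.01, so part of each shift is their construction. It also turned with library weights for Itgb3 for homozygous against wild type (0.019) and Cd44 for homozygous against heterozygous (0.14), with sex as a covariate for Cd44 for homozygous against heterozygous (0.031), and without wild-type 1, heterozygous 1 and homozygous 3 for Itgb3 for homozygous against wild type (0.055) and Cd44 (0.17 for homozygous against heterozygous, and -0.0088 against wild type for heterozygous). Leaving out single libraries gave ranges for Cd44 of -0.068 to 0.23 for homozygous against wild type, -0.15 to 0.19 for homozygous against heterozygous, and of -0.12 to 0.18 for heterozygous against wild type, for Itgav of -0.079 to 0.19 for homozygous against heterozygous, and for Itgb3 of -0.13 to 0.044 for homozygous against wild type. A filter at a mean of 5 TPM left Cd44 and Itgav only.

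The number of genes called for homozygous against wild type was 46, between 11 with only these groups in the fit and 5068 with library weights, and 2161 without wild-type 3. Of 240 genes called after median-ratio scaling, 39 were higher. Replicate numbers were not used as pairs in the main fit. Of 9 same-numbered pairs, 2 had a correlation of deviations above 0.1 (range -0.031 to 0.359), and 10 of 18 best matches were to the own number. The 2 pairs were wild-type 1 with heterozygous 1 (0.359) and wild-type 3 with heterozygous 3 (0.297). Whether a number marks a shared litter or batch cannot be told from these values. The replicate block gave 17 calls against 46 for homozygous against wild type, 1 against 6 for homozygous against heterozygous, and also 1 against 2 for heterozygous against wild type, with Gpnmb at adjusted p = 0.089 for homozygous against wild type, and it changed no call of the 4 tested genes. TPM gives no depth, so values below 1 TPM carry an unknown counting error.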

Other observations

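Other genes of the Spp1 and Gpnmb regions were also read. Of 7 tested genes within 500 kb of Spp1, limma called 0 in each comparison. At an unadjusted p under 0.05 there were 3 for homozygous and 2 for heterozygous, both against wild type, and 0 for homozygous against heterozygous. Of all tested genes, 25.04%, 6.87% and 7.15% were under that p in the same order. The log2 differences of the 7 genes ran from 0.02 to 1.01 for homozygous against wild type, with a median of 0.38. For heterozygous against wild type they ran from -0.05 to 0.44, with a median of 0.16. The nearest, Pkd2, which encodes polycystin-2, lies 18400 bases from Spp1 and had means of 14.1, 18.4 and 19.0 TPM in wild-type, heterozygous and homozygous hearts. Sparcl1, a matricellular gene of the same chromosomal region, had means of 130, 145 and 135 TPM. Of 22 tested genes within 500 kb of Gpnmb, limma called 0 in each comparison. At an unadjusted p under 0.05 there were 9 for homozygous and 0 for heterozygous, both against wild type, and 2 for homozygous against heterozygous. These counts stand beside the same shares of all tested genes. The log2 differences of the 22 genes ran from -0.32 to 1.35 for homozygous against wild type, with a median of 0.33. Malsu1, 2866 bases away, had means of 12.3, 10.5 and 10.8 TPM, and the RNA-binding protein gene Igf2bp3, 14294 bases away, had means of 11.43, 10.03 and 10.36 TPM.

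Homozygous 3 stood apart for several genes of the lists besides the thymocyte markers. Acp5, the osteoclast acid phosphatase, was at 9.33 TPM there and at 3.49 TPM or less elsewhere. Tenascin C (Tnc) was at 20.13 TPM there and at 6.85 to 11.79 TPM elsewhere. The same library had the lowest Cd44 and Itgb3, at 6.03 and 2.09 TPM, and the lowest Spp1 and Gpnmb, at 0.30 and 0.19 TPM.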
